A study of Mus musculus with 9 samples.

Results

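The genes described are 9 that handle carotenoids and retinoids (vitamin A and its derivatives) in the mouse jejunum: Isx, Scarb1, Bco1, Rbp2, Lrat, Rdh7, Aldh1a1, Cyp26b1 and Rarb. They were taken by gene symbol, all 9 have a row among the 21868 genes of the deposited count table, and all 9 were among the 14668 genes with enough reads to test. RNA was measured by bulk sequencing of a 5 cm piece of jejunum from mice (Mus musculus) given 1 of 3 treatments for 24 h. The groups are sham, TPN (total parenteral nutrition, which in textbook use is nutrients infused into a vein) and starvation, with 3 libraries each, labelled as biological replicates. The labels give no strain, genotype, age, sex or feeding state of the sham mice, so the TPN and starved mice can differ from the sham mice in more than nutrient supply. The labels do not say that each library came from a separate mouse, and where 2 shared a source the p-values below measure only the spread between these samples.

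Animals cannot make vitamin A and take it from food as carotenoids or retinyl esters. In the small intestine, the scavenger receptor encoded by Scarb1 takes up carotenoids, Bco1 cleaves beta-carotene into retinal, the cellular retinol-binding protein encoded by Rbp2 carries retinal and retinol, and Lrat esterifies retinol for export in chylomicrons. A smaller share is oxidised, by retinol dehydrogenases such as Rdh7 and retinal dehydrogenases such as Aldh1a1, to retinoic acid, the ligand of nuclear receptors such as the one encoded by Rarb, and Cyp26b1 breaks retinoic acid down. Isx is an intestinal homeobox factor that retinoic acid is known to induce and that is known to repress Scarb1 and Bco1, which closes a feedback loop on carotenoid uptake.

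All 9 markers of villus enterocytes were detected in every library and averaged 10.32 to 12 log2 CPM (CPM is counts per 1000000 counted reads, with library totals scaled by TMM). Total counts ran from 7779877 to 12084278, so that 1 read was worth 0.0798 to 0.119 CPM. Sham replicate 2 held more smooth muscle transcript than any other library, with a mean of 9.14 log2 CPM over 10 markers where the remaining 8 libraries had 4.57 to 6.28. Starvation replicate 3 had the highest villus enterocyte markers (12, against 10.71 and 11.14 in its group) and the lowest endothelial markers (2.25, against 3.74 and 3.87). Leaving out sham replicate 2 and starvation replicate 3 raised the share of all genes called from 8.6% to 29.8% in TPN against sham, from 3.69% to 19.9% in starvation against sham and from 5.84% to 21.6% in TPN against starvation, so calls gained that way below stand beside these shares. Both libraries were singled out within these same data, and leaving them out thins the sham and starvation groups. The smaller p-values of that fit are therefore no independent support. The 6 Paneth cell markers were lower in starvation (4.4 to 5.96 log2 CPM) than in sham (7.13 to 7.38) or TPN (7.35 to 7.8).

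The control sequences of some of these genes can be shown beside their values. The RefSeq promoter table used (GRCm38.p6) was matched for 8 of the 9 genes (Scarb1 was not matched), and 250 bases before each were searched on both strands. Bco1, Rbp2 and Aldh1a1 were each lower in every TPN library than in every sham library. Of these only Aldh1a1 passed the test described below, and neither of its windows holds the stretch given next. Bco1 and Rbp2 are shown here as a pair. The longest stretch the windows share is the 11 letters GTCAAAGGTCA on the reverse strand, a comparison made after the sequences were read. The capitals below mark its complement, at -56 to -46 before the Bco1 start (chr8:117095615-117095864, plus strand) and at -58 to -48 before the Rbp2 start (chr9:98490287-98490536, plus strand). The Rbp2 start in RefSeq lies inside the longer GENCODE gene model used below.
Bco1: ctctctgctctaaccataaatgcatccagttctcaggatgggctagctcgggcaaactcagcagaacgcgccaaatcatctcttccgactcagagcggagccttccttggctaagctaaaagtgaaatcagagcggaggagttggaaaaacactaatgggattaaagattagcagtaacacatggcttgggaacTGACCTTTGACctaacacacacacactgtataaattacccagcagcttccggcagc
Rbp2: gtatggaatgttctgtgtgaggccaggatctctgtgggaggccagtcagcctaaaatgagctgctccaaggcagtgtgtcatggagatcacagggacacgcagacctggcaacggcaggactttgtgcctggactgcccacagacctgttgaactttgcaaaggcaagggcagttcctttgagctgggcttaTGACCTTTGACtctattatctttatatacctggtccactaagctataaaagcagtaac

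These 11 letters were found in 10 of 32851 promoter windows of the same length (0.0304%). Since the letters were taken from the Bco1 and Rbp2 windows, both are among the 10 by construction, and the share is no test of the match. In Bco1 they overlap AGGTCANAGGTCA, a direct repeat with a spacer of 1 base of the type that PPAR and RXR receptors are known to bind, which 11 windows held (0.0335%). Rbp2 has 1 AGGTCA hexamer within the shared letters, and Rdh7 has 1 before one of its starts, at -105 to -100. The hexamer alone was found in 14% of windows, and it was in none of the windows of Isx, Lrat, Aldh1a1, Rarb or Cyp26b1. Such matches describe letters and not bound sites.

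Rarb is shown because its promoter holds the textbook retinoic acid response element. The search for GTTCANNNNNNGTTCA matched Rarb at -52 to -37 (minus strand) and no other of the 8 genes, against 0.067% of windows. The 30 bases around that match lie at chr14:16575506-16575535, inside an exon of another annotated Rarb transcript.
Rarb: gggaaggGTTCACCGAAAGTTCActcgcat

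Aldh1a1 and its neighbour Aldh1a7, a close copy on chromosome 19, are shown because both were lower in TPN than in starvation. RefSeq gives Aldh1a1 a pair of starts. The window of the downstream one is shown, taken because it held the longer match to Aldh1a7. How long a match other gene copies share was not tested. Their windows (chr19:20601718-20601967, plus strand, and chr19:20727557-20727806, minus strand) share a stretch of 65 identical bases, in capitals, at -94 to -30 in both.
Aldh1a1: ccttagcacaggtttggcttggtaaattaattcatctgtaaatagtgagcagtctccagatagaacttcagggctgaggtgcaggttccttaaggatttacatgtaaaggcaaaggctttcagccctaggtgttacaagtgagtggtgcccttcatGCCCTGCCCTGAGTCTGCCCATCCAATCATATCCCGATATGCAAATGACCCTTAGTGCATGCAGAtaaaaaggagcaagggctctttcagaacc
Aldh1a7: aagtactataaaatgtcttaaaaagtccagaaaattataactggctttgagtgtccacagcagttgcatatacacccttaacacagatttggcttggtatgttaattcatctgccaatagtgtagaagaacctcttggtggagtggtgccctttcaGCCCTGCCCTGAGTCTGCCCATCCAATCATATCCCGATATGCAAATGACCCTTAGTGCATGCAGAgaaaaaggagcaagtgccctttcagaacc

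TPN and sham were compared first. Of the 9 genes, Isx rose and Aldh1a1 fell in TPN (edgeR quasi-likelihood test, Benjamini-Hochberg adjusted p under 0.05 over all genes), which is 2 called, beside 8.6% of all 14668 genes (3.48% higher and 5.12% lower). The other 7 did not pass, though 5 of the 9 had an unadjusted p under 0.05. For 7 of the 9 the TPN and sham libraries did not overlap, 4 higher and 3 lower, beside 42.7% of all genes (21.3% higher and 21.4% lower). The median log2 fold change was -0.46 over the 9 genes and -0.02 over all genes. In starvation against sham none of the 9 passed, and in TPN against starvation Isx and Cyp26b1 were higher and Aldh1a1 lower. The comparisons share libraries pairwise, so their values stand side by side below and are not independent.

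**Figure D1:**
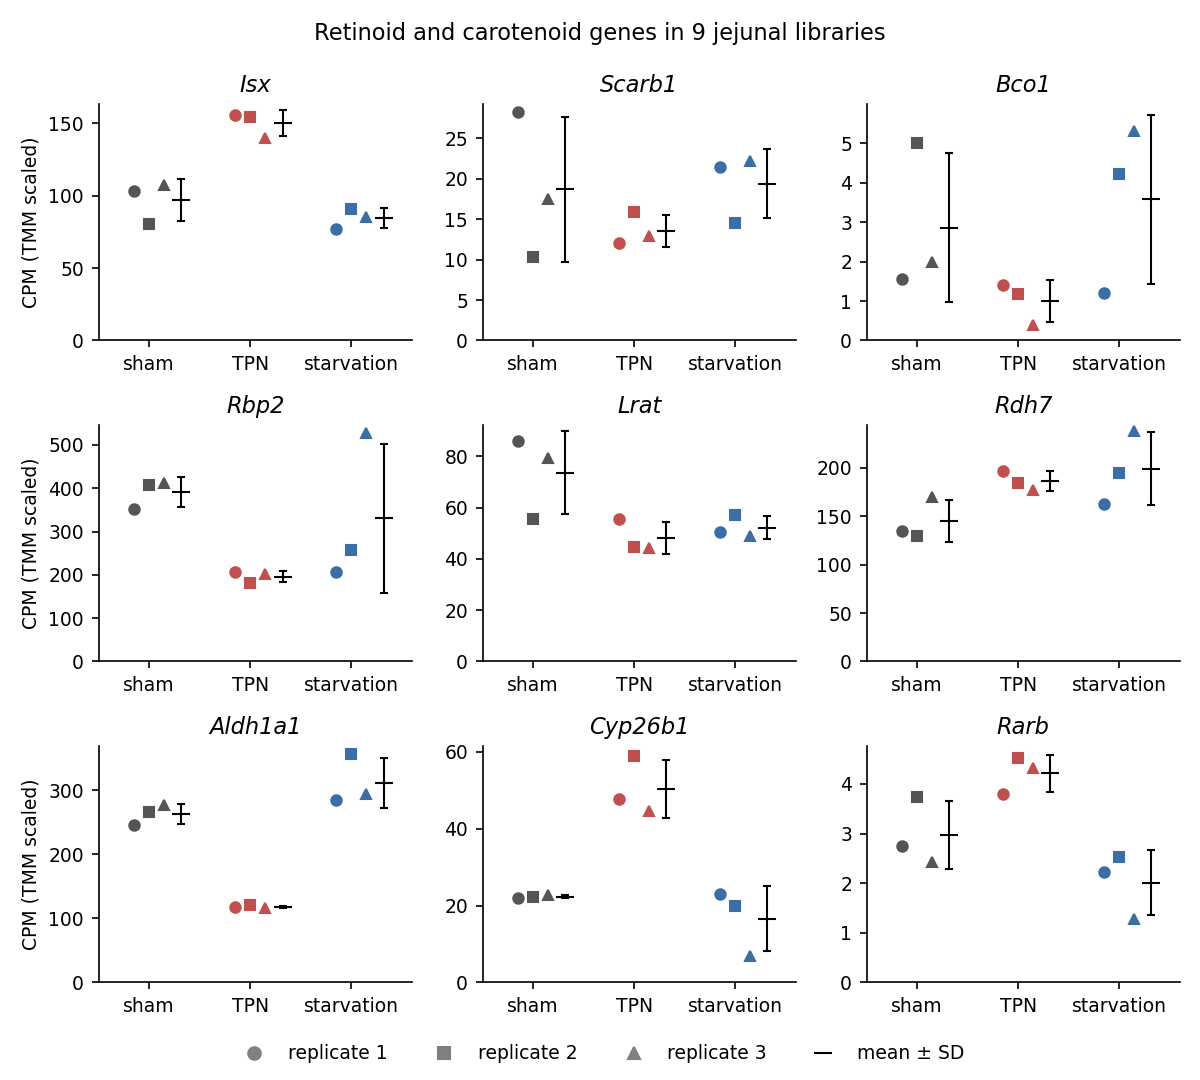
Level of each of the 9 genes in the 9 libraries, in CPM scaled by TMM (vertical axis, from 0), by treatment (horizontal axis). Circles, squares and triangles are replicates 1, 2 and 3 and the black bars are the mean ± SD; the TPN libraries sit apart from both other groups for Isx, Aldh1a1, Cyp26b1 and, by narrow margins, Rbp2 and Rarb.

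Isx, the repressor of carotenoid uptake (chromosome 8, 74873173 to 74893506, plus strand, GRCm38), was at 103, 80.2 and 107 CPM in the sham libraries, 156, 154 and 139.5 in TPN and 77.2, 90.8 and 85.5 in starvation. Every TPN library was above every other library, and the sham and starvation libraries overlapped. The means were 97.1 ± 14.7 CPM in sham, 149.9 ± 9.06 in TPN and 84.5 ± 6.83 in starvation (SD, n = 3). Isx rose 1.54-fold in TPN against sham (log2 fold change 0.63 ± 0.15 SE, edgeR adjusted p = 0.0358) and 1.77-fold against starvation (0.83 ± 0.15, edgeR adjusted p = 0.0154). Starvation against sham was -0.20 ± 0.15 (edgeR adjusted p = 0.445), with an interval from -0.53 to 0.13.

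The Isx call against sham held in 11 of 21 alternative fits, and its log2 fold change ran from 0.42 with the smooth muscle markers as a covariate (edgeR adjusted p = 0.172) to 0.97 with libraries scaled to epithelial markers (edgeR adjusted p = 0.135). It was lost with any sham or TPN library left out and without starvation replicate 2, at 0.51 to 0.71 (edgeR adjusted p = 0.0628 to 0.142). With the replicate number as a block it was 0.63 (edgeR adjusted p = 0.0895). The call against starvation held in 16 of 21 fits and was lost without any 1 of the TPN libraries, at 0.80 to 0.88. That call was also lost with libraries scaled to epithelial markers and with the replicate number as a block.

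Scarb1, the carotenoid uptake receptor that also binds high-density lipoprotein (chromosome 5, 125277087 to 125341094, minus strand), was at 28.3, 10.3 and 17.5 CPM in sham, 12.1, 15.9 and 12.9 in TPN and 21.5, 14.5 and 22.2 in starvation. The sham libraries spanned the whole range of the 9, and the 3 groups overlapped. Scarb1 was at -0.46 ± 0.34 in TPN against sham and at -0.51 ± 0.34 against starvation (edgeR adjusted p = 0.411 and 0.408). The interval against sham ran from -1.22 to 0.30, so a change of either sign of moderate size could not be resolved. Starvation against sham was at 0.05 ± 0.34 and turned negative, to -0.24, without sham replicate 2, the library with the most smooth muscle.

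Bco1, the cleavage enzyme (chromosome 8, 117095854 to 117133720, plus strand), had the fewest reads of the 9 genes, with 16, 47 and 24 reads in sham, 17, 10 and 5 in TPN and 15, 40 and 46 in starvation. In CPM these were 1.57, 5.01 and 2, then 1.4, 1.19 and 0.4, then 1.2, 4.22 and 5.32. The TPN libraries were all below the sham libraries, by a narrow margin between 1.4 and 1.57 CPM, and overlapped starvation. The difference of -1.51 ± 0.71 against sham did not pass (edgeR adjusted p = 0.206), nor did -1.83 ± 0.71 against starvation (edgeR adjusted p = 0.161). The intervals, -3.11 to 0.08 and -3.43 to -0.24, were the widest of the 9 genes. Without sham replicate 2, which held 47 of the 87 sham reads, Bco1 in TPN was at -0.85 against sham. Without starvation replicate 3, starvation against sham went from 0.32 to -0.11. Bco2, which cleaves carotenoids off centre, had 929 to 1900 reads per group, against 32 to 101 for Bco1. Bco2 averaged 34.1 ± 11.5 CPM in sham, 27.6 ± 4 in TPN and 63.2 ± 13.3 in starvation. It fell in TPN against starvation (-1.19 ± 0.26, edgeR adjusted p = 0.0312), a call lost without any 1 of sham replicate 3, the TPN libraries, starvation replicate 2 and starvation replicate 3, at -0.95 to -1.28 (edgeR adjusted p = 0.0547 to 0.145).

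Rbp2, the binding protein of the absorptive cell (chromosome 9, 98486115 to 98509781, plus strand), had the highest level per length of the 9 genes in each group. It was at 351, 408 and 412 CPM in sham, 206, 181 and 202 in TPN and 207, 258 and 527 in starvation. The TPN libraries lay below all others, with 206 in TPN replicate 1 next to 207 in starvation replicate 1, and starvation replicate 3 alone exceeded the sham libraries. Rbp2 did not pass in TPN against sham, at -0.99 ± 0.31 (edgeR adjusted p = 0.0769), a level 1.99-fold lower. DESeq2 and 5 other alternatives called it, and without starvation replicate 3 and sham replicate 2 Rbp2 was at -0.92 ± 0.13 (edgeR adjusted p = 0.00108).

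Starvation replicate 3 decided the Rbp2 value in starvation. With it, Rbp2 was at -0.24 ± 0.31 against sham (edgeR adjusted p = 0.675); without it Rbp2 was at -0.77 and passed, and without starvation replicate 1 Rbp2 was at 0.01. TPN against starvation moved from -0.75 to -0.19 without starvation replicate 3. That library also held the most villus enterocyte and pan-epithelial transcript, and the part of this in the result was not tested. The relative Rbp7 shares no 50-base stretch with Rbp2. Rbp7 had 15, 13 and 14 reads in sham, 6, 1 and 6 in TPN and 0, 2 and 0 in starvation. It fell in starvation against sham (-4.11 ± 0.93, edgeR adjusted p = 0.0458), on 42 reads against 2, a ratio of 20.4 (sham over starvation, exact interval 5.31 to 174, which covers counting error only and not the spread between libraries). With so few reads the fitted size is uncertain, and it ran from -6.86 to -3.47 with each library left out. The Rbp7 call held in 7 of 21 alternatives and in 1 of the 9 fits with a library left out, that without starvation replicate 3.

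Lrat, the retinol esterifying enzyme (chromosome 3, 82892579 to 82903973, minus strand), was at 85.9, 55.4 and 79.4 CPM in sham, 55.4, 44.8 and 44.3 in TPN and 50.3, 57.2 and 48.8 in starvation. Sham replicates 1 and 3 were the highest of all, while sham replicate 2 lay within the range of the TPN and starvation libraries. Lrat was at -0.61 ± 0.18 in TPN and -0.50 ± 0.18 in starvation against sham, and neither passed (edgeR adjusted p = 0.0677 and 0.145). Without sham replicate 2 and starvation replicate 3, Lrat was at -0.74 in TPN and -0.62 in starvation and both passed (edgeR adjusted p = 0.00162 and 0.0114). With libraries scaled to epithelial markers Lrat was at -0.28 and -0.11 (edgeR adjusted p = 0.679 and 0.878). TPN and starvation were close for Lrat, at -0.11 with an interval from -0.52 to 0.29. Dgat1, the other acyltransferase that can esterify retinol and mainly makes triglyceride, averaged 918 ± 75.1 CPM in sham, 467 ± 52.4 in TPN and 1376 ± 605 in starvation. Dgat1 fell in TPN against starvation (-1.56 ± 0.29, edgeR adjusted p = 0.0170), a call lost without any 1 of the TPN libraries, and was at -0.98 ± 0.29 against sham (edgeR adjusted p = 0.0662). Without sham replicate 2 and starvation replicate 3, Dgat1 passed against sham at -0.99 (edgeR adjusted p = 0.0012).

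Rdh7, which oxidises retinol to retinal (chromosome 10, 127884028 to 127888817, minus strand), was at 135, 130 and 169.9 CPM in sham, 197, 184 and 177 in TPN and 163, 194 and 238 in starvation. All TPN libraries were above all sham libraries, and starvation overlapped both. Rdh7 was at 0.36 ± 0.18 in TPN and 0.45 ± 0.18 in starvation against sham (edgeR adjusted p = 0.231 and 0.170), and TPN and starvation differed by -0.09 with an interval from -0.50 to 0.31. Its family lies in a cluster of similar copies, and Rdh7 shares 9.57% of its 50-base stretches with Rdh1, 5.92% with Rdh19, 2.39% with Rdh9, 1.97% with Rdh16f2 and 1.5% with Rdh16. Rdh1 and Rdh19 had 48 reads and 1 read over the 9 libraries, and Rdh7 had 4633 to 6148 per group; how reads shared between these copies were counted is not stated, and their part in the Rdh7 level was not tested. Rdh9 averaged 103 ± 29.7 CPM in sham, 116 ± 11.7 in TPN and 159 ± 69 in starvation and was not called.

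Rdh16 rose in starvation from 8.19 ± 1.93 to 21.5 ± 3 CPM (1.39 ± 0.25, edgeR adjusted p = 0.0250), with 9.52, 5.97 and 9.08 CPM in sham and 19.4, 24.9 and 20.1 in starvation. The Rdh16 call held in 12 of 21 alternatives. Leaving out sham replicate 1 or 3, TPN replicate 1 or 2, or starvation replicate 2 ended it. Rdh16f2 did not pass, at 1.42 ± 0.42 (edgeR adjusted p = 0.0908). Another short-chain dehydrogenase of retinol, Dhrs9, moved in TPN. It had 21, 44 and 14 reads in sham, 176, 109 and 179 in TPN and 64, 26 and 14 in starvation, with no overlap between TPN and the rest. Dhrs9 rose 5.32-fold against sham (2.41 ± 0.53, edgeR adjusted p = 0.0258) and 4.35-fold against starvation (2.12 ± 0.52, edgeR adjusted p = 0.0442). These calls held in 15 and 12 of 21 alternatives and both were lost without any 1 of the TPN libraries and without sham replicate 1; the first was also lost without sham replicate 3 and the second without starvation replicate 2 or 3. Sham replicate 2 held 44 of the 79 Dhrs9 reads in sham, and without it the Dhrs9 difference between TPN and sham was 3.11 on the log2 scale (edgeR adjusted p = 0.0112). Without both sham replicate 2 and starvation replicate 3, Dhrs9 was at 3.17 in TPN against sham (edgeR adjusted p = 2.13e-04), and it was also called higher in starvation against sham (edgeR adjusted p = 0.0356).

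Aldh1a1, the cytosolic retinal dehydrogenase (chromosome 19, 20492715 to 20643465, plus strand), showed the firmest difference of the 9 genes. It was at 246, 266 and 277 CPM in sham, 118, 121 and 117 in TPN and 285, 357 and 294 in starvation. The 3 TPN libraries had a mean of 118 ± 1.86 CPM (SD, n = 3) and lay below every sham and starvation library, and starvation lay above sham in each library. Aldh1a1 fell 2.22-fold in TPN against sham (-1.15 ± 0.15, edgeR adjusted p = 0.00364) and 2.63-fold against starvation (-1.40 ± 0.15, edgeR adjusted p = 0.002). Starvation against sham was at 0.25 ± 0.15 and did not pass (edgeR adjusted p = 0.342). The call against starvation held in all 21 alternatives, and that against sham in 20, all 9 fits with a library left out among them.

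The exception for Aldh1a1 was scaling to the pan-epithelial markers, at -0.79 ± 0.29 against sham (edgeR adjusted p = 0.196) and -1.44 ± 0.29 against starvation (edgeR adjusted p = 0.0298). Those 10 markers summed to 7971 to 8559 CPM in TPN and 9654 to 12318 in sham. The 9 villus enterocyte markers averaged 10.32 to 10.55 log2 CPM in TPN, 11.13 to 11.33 in sham and 10.71 to 12 in starvation, and 3 of them fell in TPN against sham and 0 rose. In bulk tissue, fewer cells of a type and less RNA per cell cannot be told apart.

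Aldh1a7 had about the same order of groups as Aldh1a1, at 21 ± 3.96 CPM in sham, 12.6 ± 1.41 in TPN and 23.1 ± 3.57 in starvation. Aldh1a7 fell in TPN against starvation (-0.88 ± 0.20, edgeR adjusted p = 0.0378) and was at -0.74 ± 0.20 against sham (edgeR adjusted p = 0.0534). Without sham replicate 2 and starvation replicate 3, Aldh1a7 passed against sham at -0.84 (edgeR adjusted p = 0.00243). The call against starvation held in 9 of 21 alternatives and was lost without any 1 of sham replicates 1 and 3, the TPN libraries and starvation replicates 2 and 3. Of the 50-base stretches of Aldh1a1, 3.06% also occur in Aldh1a7, so some reads of the more abundant gene can fall on its copy. Aldh1a2 and Aldh1a3, the other retinal dehydrogenases of the family, share none with Aldh1a1 and were not called in any comparison. Aldh1a2 was at -1.62 ± 0.50 in TPN and -1.48 ± 0.50 in starvation against sham (edgeR adjusted p = 0.0753 and 0.125), without overlap in either. Its sham libraries were at 13.9, 45.8 and 10.2 CPM, the highest being sham replicate 2, the library with the most smooth muscle. Aldh1a3 was at 0.11 and -0.17 in the same comparisons.

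**Figure D2:**
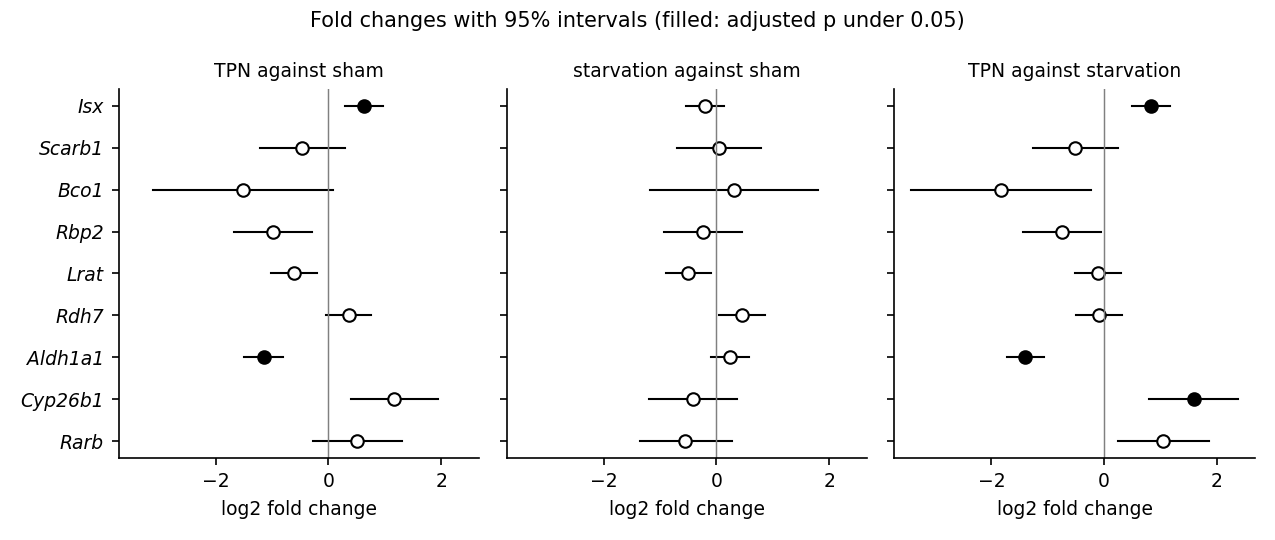
Log2 fold change of each gene (points) with its 95% interval (lines) in the 3 comparisons, from the edgeR fit of all 9 libraries. Filled points passed at adjusted p under 0.05: Isx and Aldh1a1 in TPN against sham, none in starvation against sham, and Isx, Aldh1a1 and Cyp26b1 in TPN against starvation.

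Cyp26b1, the hydroxylase that clears retinoic acid (chromosome 6, 84571414 to 84593908, minus strand), was at 22, 22.1 and 22.7 CPM in sham, 47.7, 58.8 and 44.5 in TPN and 22.9, 19.9 and 6.94 in starvation. The TPN libraries were all well above the rest, and starvation replicate 3 was far below its group. Cyp26b1 rose 3.02-fold in TPN against starvation (1.59 ± 0.35, edgeR adjusted p = 0.0319) and was 2.26-fold higher than in sham without passing (1.17 ± 0.35, edgeR adjusted p = 0.0663). Without sham replicate 2 and starvation replicate 3, Cyp26b1 passed in both, at 1.26 ± 0.14 against starvation and 1.21 ± 0.14 against sham (edgeR adjusted p = 4.9e-04 and 3.3e-04). With all libraries the call against starvation held in 12 of 21 alternatives and was lost without any 1 of the TPN libraries, sham replicate 1, sham replicate 3 or starvation replicate 2, at 1.47 to 1.74. That call was also lost with library totals, with epithelial scaling and with only the groups compared.

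Starvation against sham for Cyp26b1 was at -0.42 ± 0.35 (edgeR adjusted p = 0.499) and at -0.08 without starvation replicate 3. In that library the 6 endothelial markers averaged 2.25 log2 CPM and the fibroblast markers 4.15, the lowest of the 9 libraries. Also lowest there were the stem cell (3.89), Paneth cell (4.4), myeloid and dendritic (2.36) and B and plasma cell (2.39) markers. Pan-epithelial, villus enterocyte, villus tip and goblet cell markers were highest there. The part of any of these in its low Cyp26b1 value was not tested. The endothelial markers were at 3.90 to 4.12 in TPN and 3.79 to 3.92 in sham, and none of the 6 was called in any comparison. The fibroblast markers were at 4.43 to 5.02 in TPN and 5.6 to 7.2 in sham, and 3 of the 7 were called lower in TPN. Cyp26a1, the family member most often used to report retinoic acid, had 3 reads over the 9 libraries and Cyp26c1 had 19, and both were too low to test.

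Rarb, the receptor gene that retinoic acid induces through the element shown above (chromosome 14, 16430839 to 16819156, minus strand), was at 2.75, 3.73 and 2.42 CPM in sham, 3.79, 4.53 and 4.32 in TPN and 2.23, 2.53 and 1.27 in starvation. The TPN libraries were above all others, by 3.79 against 3.73 at the closest. Rarb was at 0.51 ± 0.35 against sham and 1.05 ± 0.36 against starvation, and neither passed (edgeR adjusted p = 0.386 and 0.120). Its counts were low, at 92, 138 and 63 reads per group, and of its annotated exon bases 34.1% overlap Top2b, a gene on the opposite strand. The labels name no step that keeps the strand, so some of these reads may come from Top2b. The other receptor genes that could be tested, Rara, Rarg, Rxra and Rxrb, were not called in any comparison, and Rxrg had 5 reads.

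Isx and Aldh1a1 changed in opposite directions in TPN, and their ratio within a library does not depend on how libraries are scaled. This ratio was chosen after the values were seen. As CPM per kb of exon, Isx over Aldh1a1 was 1.16, 0.831 and 1.07 in sham, 3.65, 3.52 and 3.28 in TPN and 0.746, 0.7 and 0.802 in starvation. The means were 1.02 ± 0.169, 3.48 ± 0.191 and 0.749 ± 0.0511 (SD, n = 3), and the 3 groups did not overlap. TPN was already set apart by each gene alone, so its separation here adds no support. Sham and starvation were apart by a narrow margin, 0.831 against 0.802. The level of the ratio also rests on the exon lengths used.

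Ranked by CPM per kb of exon, Rbp2 came first (406 ± 35.9 in sham, 204 ± 13.9 in TPN, 344 ± 178 in starvation) and Rdh7 second (86.4 ± 12.9, 111 ± 6.17 and 118 ± 22.5) in every group. Lengths here are the union of all annotated exons, 4937 bases over 6 transcripts for Aldh1a1 and 2066 over 1 for its copy Aldh1a7. Which transcripts were in use was not tested. A shorter length would raise a gene's level and could change this order. In sham, Isx (54.1 ± 8.20) and Aldh1a1 (53.3 ± 3.13) came next and could not be ordered, since their libraries overlapped. In TPN, Isx (83.6 ± 5.05) was clear of Aldh1a1 (24 ± 0.377), and in starvation Aldh1a1 (63.2 ± 7.98) was clear of Isx (47.1 ± 3.81). Lrat was above Cyp26b1 in sham (13.7 ± 3.00 against 4.16 ± 0.0767) and in starvation (9.74 ± 0.835 against 3.10 ± 1.59), and overlapped it in TPN (9 ± 1.17 against 9.40 ± 1.40). Scarb1, Bco1 and Rarb were the lowest of the 9 in each group, at 0.382 to 2.28. Bco1 was above Rarb on average in sham and starvation, with overlapping libraries, and below it in TPN, at 0.392 ± 0.208 against 0.801 ± 0.0724.

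**Figure D3:**
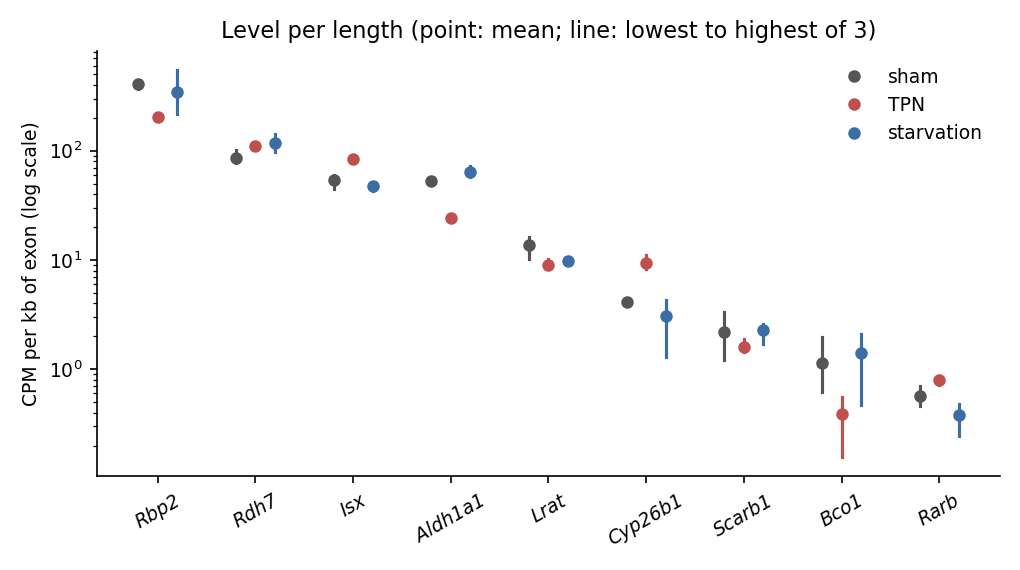
Level of each gene per kb of the union of its annotated exons, in CPM per kb on a log axis. Genes are on the horizontal axis in order of their overall mean. Points are group means and lines run from the lowest to the highest of 3 libraries; Isx and Aldh1a1 lie together in sham (54.1 and 53.3) and apart in TPN (83.6 and 24).

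The spread among replicates differed between genes and groups. The coefficient of variation over the 9 genes had a median of 15.1% in sham, 9.05% in TPN and 22.1% in starvation, and it ran from 1.57% for Aldh1a1 in TPN to 65.6% for Bco1 in sham. Sham replicate 2 was the lowest of its group for Isx, Scarb1, Lrat and Rdh7 and the highest for Bco1 and Rarb. Starvation replicate 3 was the highest of its group for Bco1, Scarb1, Rbp2 and Rdh7 and the lowest for Lrat, Rarb and Cyp26b1. TPN replicate 3 was the lowest of its group for 6 of the 9 genes and the highest for 0.

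In starvation against sham, 0 of the 9 genes passed by edgeR, DESeq2 or limma voom, beside 3.69% of all genes by edgeR (2.55% higher and 1.14% lower). The unadjusted p was under 0.05 for 2 of the 9, Lrat and Rdh7. For 1 gene, Aldh1a1, the 2 groups did not overlap, beside 25.1% of all genes (13.9% higher and 11.2% lower). The median log2 fold change of the 9 was -0.20, beside -0.01 over all genes. Without starvation replicate 3 the count was 1 (Rbp2), and without that library and sham replicate 2 it was 2 (Lrat and Rbp2), both lower, where 11.6% and 19.9% of all genes were called.

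TPN against starvation tests directly whether the 2 treatments differ in these genes. Of the 9 genes 3 passed (Isx and Cyp26b1 higher, Aldh1a1 lower), beside 5.84% of all genes (1.94% higher and 3.9% lower), and 6 had an unadjusted p under 0.05. For 5 of the 9 the groups did not overlap, 3 higher and 2 lower, beside 33.6% of all genes (15.3% higher and 18.3% lower). Their median log2 fold change was -0.11, beside -0.03 over all genes. Leaving out any 1 of the TPN libraries left 1 call, Aldh1a1, while the share of all genes called fell to between 0.831% and 1.07%. In the same comparison 4 of 6 Paneth cell markers were higher and 0 lower (median log2 fold change 1.89), and 3 of 9 villus enterocyte markers were lower and 0 higher (median -0.72). The part of these cell types in the 3 calls was not tested.

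A wider list of 58 retinoid and carotenoid genes, the 9 included, was chosen by role, with earlier results of these data known. Shares called in this list, set beside those of all genes, are therefore descriptive only. All 58 have a row, and 45 could be tested. In TPN against sham 2 were called higher and 1 lower of 45, which is 6.67% beside 8.6% of all genes, with a median log2 fold change of -0.05. In starvation against sham 1 was higher and 1 lower, 4.44% beside 3.69%, with a median of 0.12. In TPN against starvation 3 were higher and 5 lower, 17.8% beside 5.84%, with a median of -0.14. Of the 36 tested genes outside the 9, the shares called were 2.78%, 5.56% and 13.9% in the 3 comparisons in turn. Outside the 9 genes the calls were Dhrs9 in TPN against sham, Rbp7 and Rdh16 in starvation against sham, and Dhrs9, Bco2, Dgat1, Aldh1a7 and Retsat in TPN against starvation.

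Retsat, which saturates a double bond of retinol, was at 139.6, 133 and 160.3 CPM in sham, 98, 92.7 and 94.4 in TPN and 126, 146 and 200.4 in starvation. It fell in TPN against starvation (-0.73 ± 0.18, edgeR adjusted p = 0.0480) with no overlap, and was at -0.60 ± 0.18 against sham (edgeR adjusted p = 0.0699). Without sham replicate 2 and starvation replicate 3, Retsat passed against sham at -0.62 (edgeR adjusted p = 0.00271). The Retsat call against starvation held in 7 of 21 alternatives. It was lost without any 1 of sham replicates 1 and 3, the TPN libraries and starvation replicates 2 and 3, and its size went to -0.46 without starvation replicate 3, the library with the highest value. By role, in TPN against starvation, where 1.94% of all genes were higher and 3.9% lower, calls were few. Among the 4 tested genes listed under retinoic acid synthesis, 0 rose and 2 fell, Aldh1a1 and its copy Aldh1a7. Whether Aldh1a7 makes retinoic acid was not tested, and some reads of Aldh1a1 can fall on it. For breakdown and saturation 1 rose and 1 fell of 2. None of the 5 receptor genes passed. Retinol and retinal interconversion, the longest role list, had 1 higher and 0 lower of 15, which is 6.67% beside 5.84% of all genes.

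The lumenal ester hydrolases Pnlip and Cel, which the pancreas makes, were read mainly in 4 libraries, those in which all 9 pancreatic acinar markers (a list that holds both genes) were detected; these were replicate 1 of each group and TPN replicate 2. Cel had 32004 reads in TPN replicate 2 and 0 in sham replicates 2 and 3. Neither gene was called in any comparison. Plb1, a brush border hydrolase of retinyl esters, had 28 reads over the 9 libraries and was below the filter, as were Stra6, Crabp1 and Crabp2 with 59, 7 and 8 reads.

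**Figure D4:**
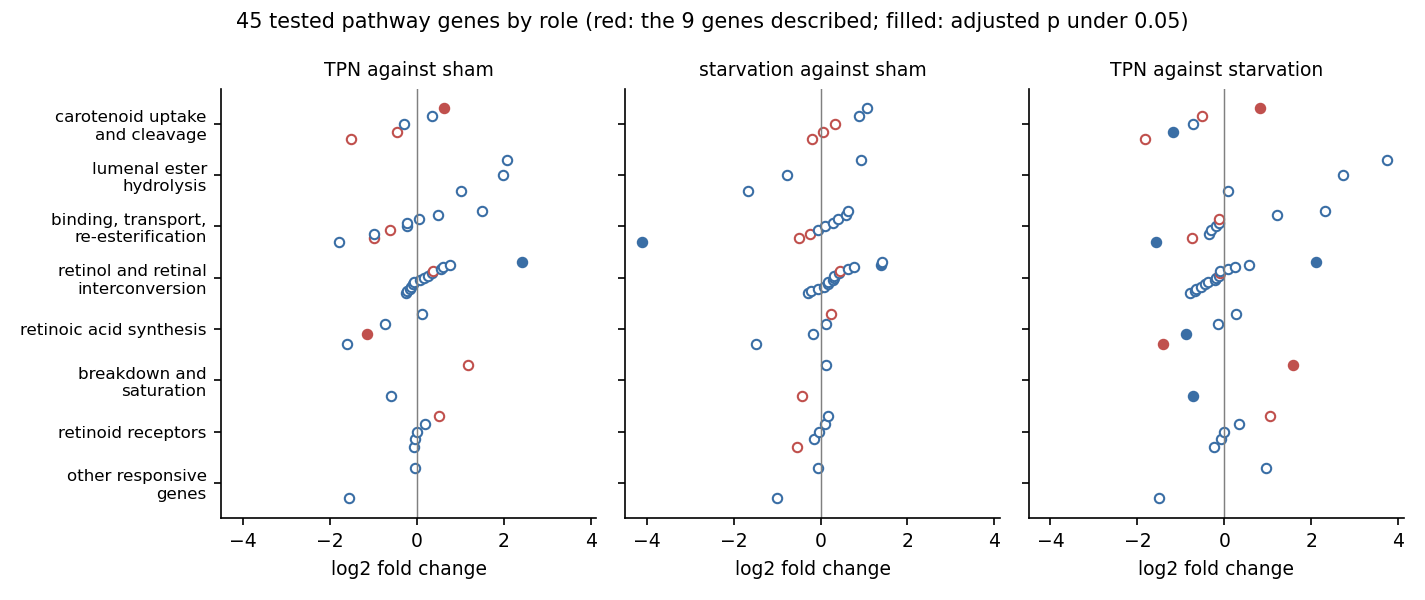
Log2 fold change of the 45 tested genes of the wider list (horizontal axis), grouped by role (vertical axis), in the 3 comparisons. Red points are the 9 genes described and blue points the other 36, and filled points passed at adjusted p under 0.05, 3, 2 and 8 in the 3 panels.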

How the data were processed

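The authors deposited raw counts per gene symbol for bulk RNA-seq of jejunum. Per the submitters' processing notes, the tools named are DESeq2 1.32.0, featureCounts 2.0.0, STAR 2.7.2e, cutadapt 2.9 and FastQC 0.11.8 (roles not stated), and the named builds are mm10 and GRCm38. Annotation release, strand setting and the handling of multi-mapped reads were not stated there. Libraries came from oligo(dT)-selected mRNA, per the labels. Columns numbered 1 to 3 in each group were taken as the replicates of the same number. The table's other 9 columns of counts matched no labelled sample and were not used.

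Counts were analysed with edgeR 4.0.16 in R 4.3.3: filterByExpr (14668 genes kept, 7200 removed), TMM factors, a quasi-likelihood fit with a mean per group over 9 libraries (6 residual degrees of freedom) and Benjamini-Hochberg adjustment over all genes, called at 0.05. The SE is the size of the log2 fold change over the square root of F, and intervals are at 95%. Marker levels are mean log2(CPM + 0.5). Gene positions and exon lengths come from GENCODE M21 (GRCm38), promoters from RefSeq. The fit was tested on simulated data. Replicate pairs differed beyond sampling noise (chi-square per gene 8.02 to 125).

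Genes and lists were chosen with earlier results of these data known. Named are the 9 genes, further list genes called in any comparison, and close paralogs; 1 gene is not reported here. The alternatives tried were 4 other scalings, limma 3.58.1 voom, DESeq2 1.42.0, 2 other filters, fits of only the groups compared, a replicate block, a smooth muscle covariate, libraries left out and a threshold of 0.01.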

Additional observations from a re-analysis of the deposited data

How the results depend on the processing

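The 9 genes gave 567 log2 fold changes over 3 comparisons and 21 alternatives, of which 509 kept their direction and side of the threshold, 25 lost a call, 20 gained one and 13 changed sign; the cause was not tested. Of the 9 genes, 2 were called in TPN against sham, against 0 with epithelial scaling, 5 with DESeq2, 4 when only the groups compared were fitted, 5 without sham replicate 2 and starvation replicate 3, 1 at a threshold of 0.01, and 1 to 5 with each library left out. The calls over all genes moved too, from 8.6% to 2.24% with epithelial scaling, 16.5% with DESeq2, 19.4% with only the groups compared, 29.8% without both libraries and 1.76% at 0.01. Of the wider list 3 were called, against 5 with library totals, 0 with epithelial scaling, 10 with DESeq2, 5 with voom, 8 with only the groups compared, 13 without both libraries, 1 at 0.01, and 1 to 9 with each library left out. The share of all genes was 8.34% with library totals, 8.5% with voom and 1.45% to 21.3% with each library left out. In starvation against sham, 0 of the 9 genes became 2 without both libraries and 0 to 1 with each left out, and 2 of the wider list became 1 with library totals, 7 with DESeq2, 1 with no filter, 0 with only the groups compared, 0 with the smooth muscle covariate, 11 without both libraries, 0 at 0.01 and 0 to 4 with each left out. Over all genes the share called there went from 3.69% to 2.41% with library totals, 11.3% with DESeq2 and 2.5% with no filter. It was 0.0141% with only the groups compared, 1.6% with the smooth muscle covariate, 19.9% without both libraries and 0.205% at 0.01. With each library left out it was 0.214% to 11.6%. In TPN against starvation, 3 of the 9 became 1 with epithelial scaling, 1 at 0.01 and 1 to 3 with each left out, and 8 of the wider list became 3 with library totals, 2 with epithelial scaling, 5 with only the groups compared, 14 without both libraries, 1 at 0.01 and 1 to 12 with each left out. The share of all genes called there went from 5.84% to 4.88% with library totals and 2.17% with epithelial scaling. It was 3.78% with only the groups compared, 21.6% without both libraries, 0.982% at 0.01 and 0.831% to 8.35% with each left out.

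With the replicate number as a block, 1 of the 9 genes was called in TPN against sham, and 0 and 4 of the wider list in starvation against sham and TPN against starvation. The block also lowered the share of all genes called. That share went from 8.6% to 3.79% in TPN against sham, from 3.69% to 0.484% in starvation against sham and from 5.84% to 2.63% in TPN against starvation. Same-numbered libraries correlated at -0.3 to 0.38 and differently numbered ones at -0.58 to 0.48. Whether libraries of the same number share a batch was not tested.

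The values that changed sign were not called, before or after. With epithelial scaling Bco2 in TPN against sham was at 0.02, and in starvation against sham Isx was at 0.17 and Cyp26b1 at 0.15. Also in starvation against sham, Scarb1 was at -0.24 with the smooth muscle covariate, and without both libraries Scarb1 was at -0.33, Aldh1a7 at -0.14 and Retsat at -0.14. In TPN against starvation Lrat was at 0.03 and Rdh7 at 0.09 with library totals, and Rdh7 at 0.1 without both libraries. With each library left out, starvation against sham ran from -0.11 to 0.98 for Bco1, -0.24 to 0.47 for Scarb1, -0.77 to 0.01 for Rbp2, -0.02 to 0.25 for Aldh1a7, -0.25 to 1 for Dhrs9 and -0.11 to 0.27 for Retsat, and TPN against starvation ran from -0.22 to 0.11 for Rdh7. Scaling by library totals moved the median of all genes by 0.187 in TPN against sham and 0.143 in TPN against starvation, and epithelial scaling moved it by 0.358 and, in starvation against sham, 0.411. The share of calls that were lower in TPN against sham went from 59.6% to 48.6% with upper quartile factors, 46.8% with library totals and 45.1% with epithelial scaling. With epithelial scaling that share went from 30.9% to 7.14% in starvation against sham and from 66.7% to 86.2% in TPN against starvation.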
